A study of Mus musculus with 6 samples.

Results

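The unfolded protein response genes described here are Manf, Creld2, Sdf2l1, Xbp1, Hyou1, Pdia4, Herpud1, Atf6, Ern1 and Calr. They were taken by symbol, and all 10 were found among the 54532 genes of the count table. They were chosen by name with earlier results of the same comparison known, and the set was built around Manf, selected on its measured fall in A20-overexpressing cells once 1 control library was left out. The differences between the groups are therefore given below as a description of these 10 genes, and no p-value is printed for them. Which of them passed a threshold is stated as description only, because Manf was selected on the same fall. RNA was sequenced from TM3 cells, a mouse Leydig cell line, in 3 libraries of cells with the genotype A20 overexpression and 3 libraries of cells with the genotype WT, titled as overexpression controls. The protein A20 is the product of Tnfaip3, edits ubiquitin chains and limits NF-kB signals. All cells grew in DMEM/F12 medium with fetal bovine and horse serum and the labels name no agent that stresses the endoplasmic reticulum in either group. How A20 was overexpressed, whether each group is 1 clone or a pool, and whether the 3 libraries are separate cultures are not stated in the labels. The spread between libraries, and every p-value resting on it, may therefore be technical.

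The unfolded protein response adjusts the protein-folding capacity of the endoplasmic reticulum to its load. Ern1 encodes IRE1, a membrane sensor whose RNase removes an intron from Xbp1 mRNA in the cytoplasm so that the active XBP1 transcription factor can be made. Atf6 encodes a membrane-bound transcription factor that is cut free in the Golgi apparatus. The PERK kinase slows translation and favours ATF4. XBP1 and ATF6 raise chaperones, disulfide isomerases and degradation factors. Secretory and steroid-producing cells carry an extensive endoplasmic reticulum. Gene counts do not separate spliced from unspliced Xbp1 mRNA, nor cleaved from intact ATF6, so the values below are RNA levels and not activities of the sensors.

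XBP1 and ATF6 act through short promoter elements, and the promoters of 3 of the genes are shown because these letters stand in them. RefSeq promoter sequences (build GRCm38.p6, 250 bases before to 50 after the start) were at hand for 7 of the 10 genes: Pdia4, Calr, Herpud1, Xbp1, Ern1, Creld2 and Sdf2l1. Those of Manf, Hyou1 and Atf6 were not used here. The endoplasmic reticulum stress element (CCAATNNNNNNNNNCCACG, either strand) was found in the promoters of Calr and Creld2, that is in 2 of 7, and in 0.119% of the 32851 promoters searched. The related second element (ATTGGNCCACG, either strand) was found in Herpud1, in 1 of 7, and in 0.0365% of all promoters. The core of the unfolded protein response element, which XBP1 and ATF6 bind as well (TGACGTG, either strand), was in 0 of 7, against 2.01% of all promoters. The elements did not overlap one another. The first 250 bases of each promoter, which end at the base before the start, are printed in the direction of the gene with the fixed letters of the element in capitals.
Calr, chr8:84846932-84847181, minus strand: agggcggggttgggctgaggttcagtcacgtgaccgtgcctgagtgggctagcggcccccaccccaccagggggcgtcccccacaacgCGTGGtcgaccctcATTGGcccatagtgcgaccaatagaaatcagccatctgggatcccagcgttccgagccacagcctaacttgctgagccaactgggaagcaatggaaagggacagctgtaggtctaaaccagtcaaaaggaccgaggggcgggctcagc
Creld2, chr15:88819396-88819645, plus strand: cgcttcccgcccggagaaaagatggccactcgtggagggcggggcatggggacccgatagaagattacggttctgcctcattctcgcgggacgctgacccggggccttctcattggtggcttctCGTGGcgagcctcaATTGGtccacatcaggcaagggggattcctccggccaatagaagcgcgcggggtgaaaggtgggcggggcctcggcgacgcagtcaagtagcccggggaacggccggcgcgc
Herpud1, chr8:94386179-94386428, plus strand: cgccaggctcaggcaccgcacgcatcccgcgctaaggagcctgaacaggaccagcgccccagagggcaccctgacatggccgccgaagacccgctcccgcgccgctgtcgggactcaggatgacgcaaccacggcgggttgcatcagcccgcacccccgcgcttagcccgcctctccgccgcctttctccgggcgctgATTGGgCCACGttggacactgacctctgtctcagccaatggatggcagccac
Counted back from the start, with -1 as the base before it, the element lay at -162 to -144 in Calr and at -126 to -108 in Creld2, in both on the opposite strand, and at -52 to -42 in Herpud1 on the strand of the gene. The CCAAT pentamer alone, which is part of the first and second elements, occurred 2 times in the 250 bases of Calr and of Herpud1 and 3 times in those of Creld2, Pdia4 and Sdf2l1, counted on both strands. It was absent from the windows of Xbp1 and Ern1, and 33.8% of all promoters held it at least once. A match in these windows is a description of the letters and no evidence that a factor binds there.

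Values are CPM, the count scaled to the library's total, with totals of 13841287 to 16917979 counts, at which 3 counts stand at 0.177 to 0.217 CPM. Each log2 fold change sets A20-overexpressing cells over control cells in edgeR's quasi-likelihood fit across all genes, with an approximate standard error (SE), and a gene was called at a Benjamini-Hochberg adjusted p under 0.05. Tnfaip3 itself had 41.0, 33.7 and 43.6 CPM in A20-overexpressing libraries 1 to 3, against 30.9, 11.9 and 15.2 CPM in control libraries 1 to 3. Its log2 fold change was 1.08 ± 0.30 (SE, edgeR adjusted p = 0.331) with all libraries and 1.51 ± 0.19 (SE, edgeR adjusted p = 0.000256) without control library 1. Control library 1 stood apart from the other 5. The summed level of 8 Leydig cell markers was 5.26 to 7.86 CPM in A20-overexpressing libraries and 3.97 to 6.29 CPM in control libraries 2 and 3, against 2039 CPM in control library 1. Hsd3b1, Cyp17a1 and Lhcgr had no count in the 5 other libraries, and Hsd17b3 none in any library. In those 5, Star had 2.52 to 4.54 CPM, Insl3 0.418 to 2.91 CPM, Nr5a1 0.0697 to 0.596 CPM and Cyp11a1 at most 0.144 CPM. Some markers of the labelled cell type were thus absent from those 5 and others were low. The 6 Sertoli cell markers summed to 10.6 to 14.6 CPM with A20 overexpression and to 23.2 and 31.6 CPM in control libraries 2 and 3. In control library 1 they summed to 232 CPM, of which Clu alone had 221 CPM. Inha had 7.30 CPM there, Dhh 3.84 CPM and Amh 0.195 CPM, with Sox9 and Fshr at 0 in all libraries. The 5 macrophage markers summed to 22.7 to 42.9 CPM with A20 overexpression, to 32.6 and 34.7 CPM in control libraries 2 and 3 and to 5.93 CPM in control library 1, with Adgre1 and Ptprc at 0. Germ cell markers summed to 3.51 to 7.49 CPM over all libraries, with Dazl at 0. Endothelial markers summed to 3.31 to 5.11 CPM with A20 overexpression and to 3.97 and 4.55 CPM in control libraries 2 and 3. In control library 1 they summed to 36.7 CPM, of which Cdh5 alone had 35.1 CPM. Pecam1 had 0.586 CPM there and Egfl7, at its lowest, 1.04 CPM, with Kdr and Tek at 0. Peritubular myoid markers summed to 36.7 to 46.2 CPM with A20 overexpression and to 41.5 and 59.6 CPM in control libraries 2 and 3. In control library 1 they summed to 88.7 CPM, of which Acta2 alone had 77.6 CPM. Des was at its lowest there, at 6.58 CPM, and Cnn1 and Myh11 had 3.91 and 0.586 CPM. The log2(CPM + 1) of control library 1 correlated at r = 0.878 to 0.891 with each other library, and those correlated at 0.971 to 0.993 among themselves, across 13044 genes, which are not independent replicates. Fold changes, calls and overlaps are therefore given with all 6 libraries and without control library 1.

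All 10 genes were well expressed and passed the filter on low counts with and without that library. Levels between genes were compared in the deposited FPKM, which is per length. Calr, the calcium-binding lectin chaperone calreticulin, had the highest mean over 6 libraries, at 1399 FPKM, followed by the disulfide isomerase Pdia4 at 424 FPKM and Sdf2l1 at 188 FPKM. Creld2 at 150.1 FPKM, Herpud1 at 146 FPKM, Hyou1 at 138 FPKM and Manf at 128 FPKM formed a middle tier. In this tier Creld2 lay above Herpud1 in 3 of 6 libraries, Herpud1 above Hyou1 in 4 and Hyou1 above Manf in 4, so neighbours there did not differ beyond their spread. Xbp1 followed at 61.4 FPKM, and the sensors were lowest, Atf6 at 27.4 FPKM and Ern1 at 18.5 FPKM. Every other step of this order held in each of the 6 libraries. FPKM divides by 1 length per gene, equal to all its annotated exonic bases, 3524 for Manf and 7230 for Hyou1. An error in that length would shift all 6 libraries alike, so their agreement does not cover it. Of the 3524 exonic bases of Manf, 146 overlap exons of Dcaf1 and 166 overlap exons of the antisense gene 4930524O07Rik, both on the opposite strand. On the same strand, 14 overlap Rbm15b. Reads in these stretches are of uncertain origin, and the strand setting of the counting is not given in the sources used here. Dcaf1 averaged 74.9 CPM, Rbm15b 32.8 CPM and 4930524O07Rik 0.298 CPM.

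**Figure D1:**
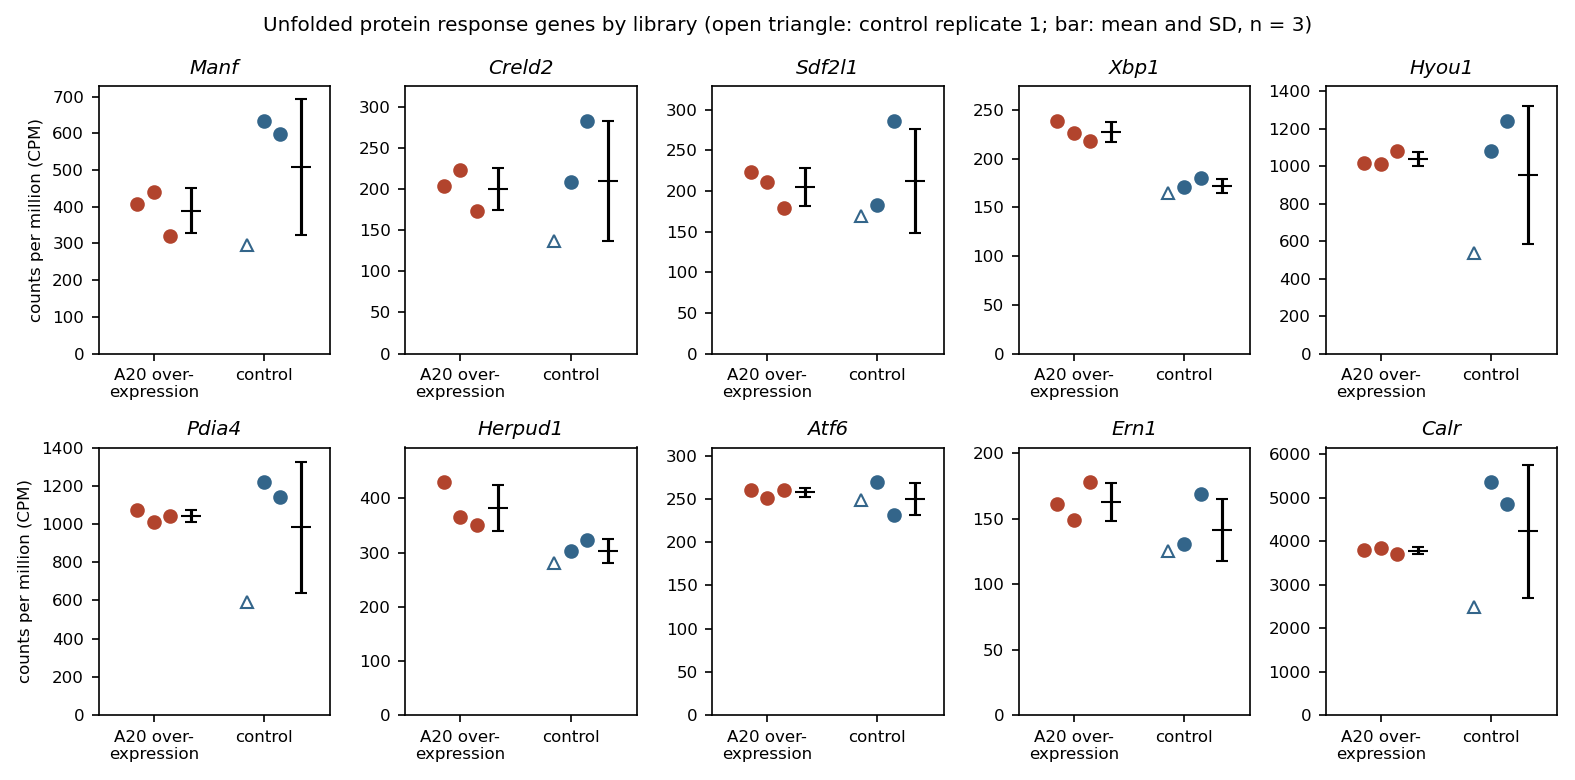
CPM of the 10 genes (vertical axes, each starting at 0) in every library of A20-overexpressing cells, left, and control cells, right, with the mean and SD of 3 libraries beside the points. Control library 1 (open triangle) was the lowest of the 6 libraries for each gene except Atf6, and only Xbp1 and Herpud1 showed no overlap between all 3 libraries of each group.

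With all 6 libraries, edgeR called 0 of the 10 genes, and 0.015% of all 13350 genes tested were called, 0.00749% higher and 0.00749% lower. DESeq2, limma-voom and limma-voom with quality weights per library also called 0 of the 10. At an unadjusted p under 0.05 edgeR had 1 of the 10, Xbp1, and 10% of all genes. The median log2 fold change of the 10 was 0.07, against -0.03 over all genes tested. Without control library 1, edgeR called 1 of the 10, Manf, lower with A20 overexpression, where 4.6% of all 13658 genes were called 1.92% higher and 2.68% lower. At an unadjusted p under 0.05 it then had 3 of the 10 (Manf, Xbp1 and Calr) and 21.6% of all genes. Because the set was chosen with this comparison known, nothing is read from these counts. The median of the 10 was then -0.21, against -0.00 over all genes.

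**Figure D2:**
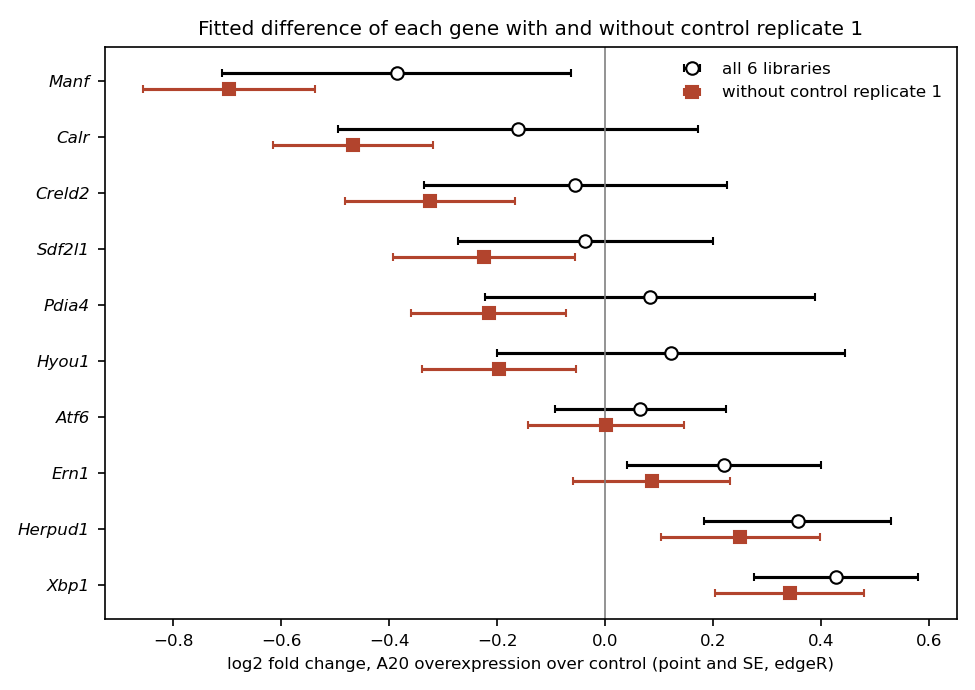
Log2 fold change of A20 overexpression over control (horizontal axis, point and SE from edgeR) for each gene with all 6 libraries (open circles) and without control library 1 (squares). Leaving out that library moved each of the 10 genes toward lower values, with Manf at -0.39 and -0.70 and Xbp1 at 0.43 and 0.34 in the 2 fits, and turned the sign for Hyou1 and Pdia4.

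Among the sensors, Ern1 (GRCm38 chromosome 11, 106394650 to 106487852, minus strand) had 161, 149 and 178 CPM in A20-overexpressing libraries 1 to 3, against 125, 131 and 169 CPM in control libraries 1 to 3. The highest control lay inside the A20-overexpressing range, so the groups overlapped. Ern1 had a log2 fold change of 0.22 ± 0.18 (SE) with all libraries and 0.09 ± 0.15 (SE) without control library 1. Atf6 (chromosome 1, 170704674 to 170867771, minus strand) was the steadiest of the 10 genes. It had 260.4, 251.5 and 260.2 CPM with A20 overexpression and 248, 269 and 232 CPM in controls. Its highest library was 1.16 times its lowest, and the control values lay on either side of the A20-overexpressing ones. The log2 fold change was 0.07 ± 0.16 (SE) with all libraries and 0.00 ± 0.14 (SE) without control library 1, and the sign of that last value turned with the choice of scaling, between -0.00 and 0.04.

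Xbp1, the transcription factor gene processed by IRE1 (chromosome 11, 5520659 to 5525893, plus strand), was higher in each A20-overexpressing library than in each control. It had 239, 226 and 218 CPM with A20 overexpression, against 165, 171 and 180 CPM in controls, with means of 228 ± 10.4 and 172 ± 7.42 CPM (SD, n = 3 each). The control libraries lay close together, control library 1 included. Xbp1 had a log2 fold change of 0.43 ± 0.15 (SE) with all libraries and 0.34 ± 0.14 (SE) without control library 1, neither of them called. Over the other settings and left-out libraries it stayed between 0.31 and 0.48. Herpud1 (chromosome 8, 94386438 to 94395377, plus strand) encodes a membrane protein of the complex that sends misfolded proteins from the endoplasmic reticulum to the proteasome. It followed the same order, with 429.5, 366 and 350.1 CPM in A20-overexpressing libraries and 281, 303 and 324 CPM in controls. The groups did not overlap, with means of 382 ± 42.0 and 303 ± 21.6 CPM (SD, n = 3 each), but the lowest A20-overexpressing library lay close to the highest control. The log2 fold change was 0.36 ± 0.17 (SE) with all libraries and 0.25 ± 0.15 (SE) without control library 1, again not called. Xbp1 and Herpud1 were the 2 genes of the 10 that were higher without overlap in CPM, a pattern that 7.62% of all genes tested showed with 6 libraries and 20.7% without control library 1. The deposited FPKM gave the same 2 genes.

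The lectin and disulfide chaperones behaved otherwise. Calr (chromosome 8, 84841850 to 84846934, minus strand) had 3805, 3843 and 3704 CPM with A20 overexpression, against 2484, 5351 and 4844 CPM in controls. The A20-overexpressing libraries lay close together, between control library 1, which was lower, and control libraries 2 and 3, which were higher. The log2 fold change was -0.16 ± 0.33 (SE) with all libraries and -0.47 ± 0.15 (SE) without control library 1, where edgeR did not call it and DESeq2 did. With 1 control library left, assumed to vary like the other libraries, the value was -0.58 and called by edgeR against control library 2 alone, and -0.34 and not called against control library 3 alone. Pdia4 (chromosome 6, 47796141 to 47813430, minus strand), a disulfide isomerase with several thioredoxin-like domains, had 1075, 1008 and 1040.4 CPM with A20 overexpression, against 589, 1217 and 1139.9 CPM in controls. Hyou1 (chromosome 9, 44379490 to 44392369, plus strand), a large Hsp70-related chaperone that serves as nucleotide exchange factor for BiP, had 1018, 1009.8 and 1080.2 CPM with A20 overexpression, against 538, 1081 and 1241 CPM in controls. In both genes the A20-overexpressing libraries lay between control library 1 and the other controls, and control library 1 stood at 0.538 times the mean of the other 5 libraries for Pdia4 and 0.495 times for Hyou1. For Pdia4 the log2 fold change was 0.08 ± 0.31 (SE) with all libraries and -0.22 ± 0.14 (SE) without control library 1. For Hyou1 it was 0.12 ± 0.32 (SE) with all libraries and -0.20 ± 0.14 (SE) without it.

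Manf (chromosome 9, 106838312 to 106891979, minus strand) encodes a small protein of the endoplasmic reticulum that is secreted under stress and protects cells. It had 408, 439.6 and 321 CPM in A20-overexpressing libraries, against 295, 634 and 598 CPM in controls. Each A20-overexpressing library lay below control libraries 2 and 3 and above control library 1. The means were 389 ± 61.6 and 509 ± 186 CPM (SD, n = 3 each), and 616 CPM ± 25.7 for control libraries 2 and 3 alone (SD, n = 2). The log2 fold change was -0.39 ± 0.32 (SE) with all libraries and -0.70 ± 0.16 (SE) without control library 1. Leaving out control library 2 or 3 instead gave -0.13 and -0.26, neither called. The call without control library 1 was lost when any A20-overexpressing library was left out as well, with log2 fold changes of -0.72, -0.80 and -0.57 without library 1, 2 and 3. Creld2 (chromosome 15, 88819646 to 88826683, plus strand), a gene induced by stress of the endoplasmic reticulum whose product has EGF-like repeats, had 203, 224 and 173 CPM with A20 overexpression, against 137, 208 and 283 CPM in controls. Sdf2l1 (chromosome 16, 17130138 to 17132383, minus strand), whose product works with BiP and its co-chaperones, had 224, 211 and 179 CPM with A20 overexpression, against 169, 183 and 286 CPM in controls. In both genes control library 3 was the highest of all and control library 1 the lowest, so the A20-overexpressing values fell inside the control range. For Creld2 the log2 fold change was -0.06 ± 0.28 (SE) with all libraries and -0.32 ± 0.16 (SE) without control library 1. For Sdf2l1 it was -0.04 ± 0.24 (SE) with all libraries and -0.22 ± 0.17 (SE) without it, and 0.08 against control library 2 alone, a control group of 1 library. Without control library 1, Manf, Calr, Pdia4 and Hyou1 were the 4 of the 10 that were lower without overlap, as were 17.2% of all genes tested. With all 6 libraries 0 of the 10 were, against 9.27% of all genes. For Hyou1 the groups nearly met in CPM, at 1080.2 in A20-overexpressing library 3 and 1080.8 in control library 2. In FPKM these 2 libraries stood at 149 and 160.

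**Figure D3:**
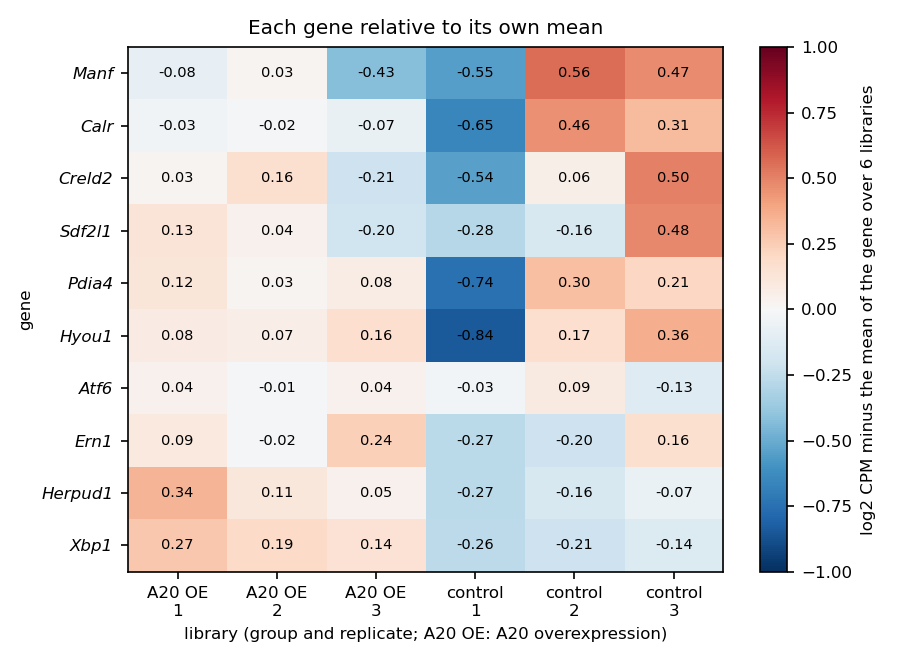
Log2 CPM of each gene minus its mean over the 6 libraries (colour and printed value), with A20-overexpressing libraries in the left columns and control libraries in the right. Control library 1 reached -0.84 for Hyou1 and -0.74 for Pdia4, while Xbp1 and Herpud1 were positive in the A20-overexpressing columns and negative in the control ones.

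Control library 1 lay at the low end for most of these genes. It was the lowest library for 9 of the 10, and for 21.7% of all genes tested. Its log2 ratio to the mean of the other 5 libraries was -1.01 for Hyou1, -0.89 for Pdia4, -0.79 for Calr, -0.70 for Manf and -0.67 for Creld2. The ratio was smaller for Sdf2l1 (-0.36), Herpud1 (-0.34), Ern1 (-0.33) and Xbp1 (-0.33), and was -0.04 for Atf6. The median over the 10 was -0.52, against 0.13 over all genes tested, with 0.5 CPM added there. Only control library 1 had raised steroidogenic markers. With 1 such library, a link between the markers and these ratios cannot be seen, and it was not tested. In bulk RNA, fewer cells of a kind and less RNA per cell cannot be told apart. The SD of log2 CPM was smaller among A20-overexpressing libraries than among controls for 8 of the 10 genes, at 0.03 with A20 overexpression and 0.60 in controls for Calr. It was 0.16 with A20 overexpression and 0.10 in controls for Herpud1, and 0.07 with A20 overexpression and 0.06 in controls for Xbp1. With control libraries 2 and 3 alone the count was 7 of the 10, and the control SD of Calr was 0.10. Manf turned, with 0.24 with A20 overexpression and 0.06 in those controls. The share over all genes was not counted, so nothing particular to the 10 genes is read from these counts. Across 13044 genes, the A20-overexpressing libraries correlated at 0.991 to 0.993 among themselves. Control libraries 2 and 3 correlated at 0.982, and each of them with control library 1 at 0.878 and 0.883.

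Other genes of the response were described from 6 lists of 67 genes, of which 66 passed the filter. With all 6 libraries edgeR called 0 of 66, DESeq2 called 1 higher, limma-voom 0, and limma-voom with quality weights 1 higher and 1 lower. At an unadjusted p under 0.05 edgeR had 6 of 66, 5 of them higher and 1 lower, where 10% of all genes had such a p. Without control library 1 edgeR called 1 higher and 1 lower, and 64 did not pass, where 4.6% of all genes were called. DESeq2 then called 3 higher and 3 lower, limma-voom 1 higher and 1 lower, and limma-voom with quality weights 1 higher. At an unadjusted p under 0.05 edgeR then had 9 of 66, 4 higher and 5 lower, and 21.6% of all genes. With all 6 libraries, 6 of the 66 were higher without overlap in CPM and 1 lower, against 7.62% and 9.27% of all genes. Without control library 1, 9 of the 66 were higher without overlap and 12 lower, against 20.7% and 17.2% of all genes. The gene that edgeR called higher without control library 1 was Trib3, a pseudokinase induced through ATF4 and CHOP. Trib3 had 376, 425 and 479.7 CPM with A20 overexpression, against 303, 227 and 251 CPM in controls, and its groups did not overlap. Trib3 had a log2 fold change of 0.75 ± 0.17 (SE, edgeR adjusted p = 0.242) with all libraries and 0.80 ± 0.15 (SE, edgeR adjusted p = 0.00791) without control library 1, and 0.72 without A20-overexpressing library 3 as well, where it was not called. The gene that edgeR called lower there was Sec61b, a subunit of the translocon through which proteins enter the endoplasmic reticulum. Sec61b had 45.2, 57.7 and 56.5 CPM with A20 overexpression, against 92.4, 80.6 and 79.4 CPM in controls, and control library 1 was its highest. Its log2 fold change was -0.63 ± 0.16 (SE, edgeR adjusted p = 0.274) with all libraries and -0.63 ± 0.15 (SE, edgeR adjusted p = 0.0267) without control library 1. That call was lost when any A20-overexpressing library was left out as well, with values of -0.70 to -0.51.

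For each list below, paired values give all 6 libraries first and the fit without control library 1 second, and all genes tested had medians of -0.03 and -0.00. Of 12 chaperone and co-chaperone genes, 0 passed in either fit, with medians of 0.02 with all libraries and -0.09 without control library 1, and 10 of the 12 had negative values in the smaller fit. Hspa5, the Hsp70 chaperone BiP and the most abundant of them, had 11964, 11986 and 10691 CPM with A20 overexpression, against 6655, 15909.7 and 12647 CPM in controls. It lay in the same order as Calr, with A20-overexpressing libraries between control library 1 and the other controls. Its log2 fold change was -0.03 ± 0.37 (SE, edgeR adjusted p = 0.987) with all libraries and -0.35 ± 0.16 (SE, edgeR adjusted p = 0.226) without control library 1. Against control library 2 alone, its highest library, edgeR gave -0.54 and a call, and against control library 3 alone -0.12 and no call. Of 12 genes of oxidative folding, 0 passed, with medians of 0.04 and -0.06, and the disulfide isomerase P4hb had 0.16 ± 0.24 and -0.05 ± 0.15 (SE). The calnexin cycle had 0 of 7 past the test, with medians of 0.14 and -0.07 and with the lectin chaperone Canx at 0.03 ± 0.26 and -0.17 ± 0.16 (SE). Of 16 genes of degradation and translocation tested, 0 and 1 passed, with medians of 0.05 and -0.10. The 10 other sensors and regulators had 0 past the test and medians of 0.18 and 0.09, with Tmbim6, a calcium channel-like inhibitor of cell death, at 0.07 ± 0.17 and -0.03 ± 0.14 (SE). The 9 genes of the PERK branch had 0 and 1 past the test and the highest medians of these lists, 0.25 and 0.20. In each fit 6 of the 9 were positive and 3 negative. Ddit3, which encodes CHOP, had -0.03 ± 0.35 and -0.36 ± 0.16 (SE), and Atf4 had 0.12 ± 0.18 and 0.08 ± 0.15 (SE). Control library 1 was the lowest library for 37 of the 66 genes, and for 21.7% of all genes tested. Among the 37 were 9 of the 12 chaperones, 7 of the 12 oxidative folding genes and 6 of the 7 calnexin cycle genes. The others were 9 of the 16 genes of degradation and translocation, 4 of the 10 sensors and regulators and 2 of the 9 PERK branch genes.

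**Figure D4:**
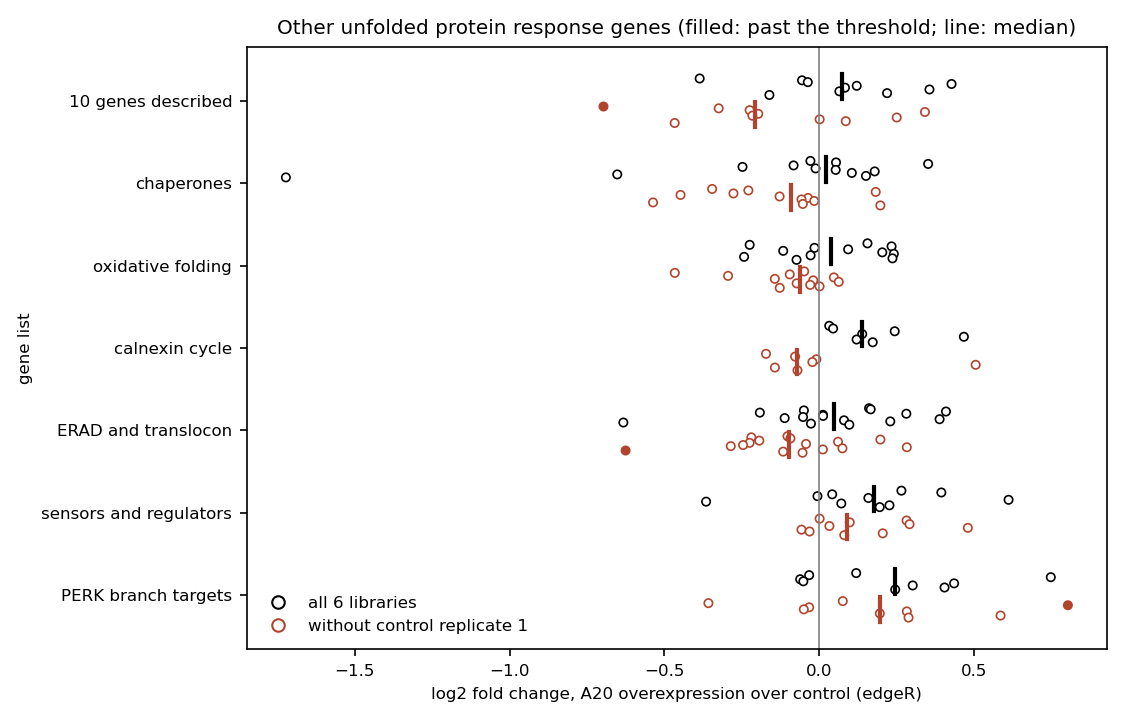
Log2 fold change of A20 overexpression over control (horizontal axis, edgeR) of each gene tested in the 10 genes described and in 6 further lists (one line each, top to bottom), with all 6 libraries in black and without control library 1 in red, with a line at each median. Filled points passed the adjusted threshold, which were Manf, Sec61b and Trib3, all without control library 1.

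The genes with a profile most like that of Manf over the 6 libraries were not other genes of the set. Likeness was the root-mean-square difference of log2 CPM centred on each gene's mean, among 7373 protein-coding genes that averaged 20 CPM or more. Ube2t, a ubiquitin-conjugating enzyme of DNA crosslink repair, came first at 0.08, then Igfbp3, a binding protein of insulin-like growth factors, at 0.09, and Wdr48, a partner of deubiquitinases, at 0.11. Mxd4, a transcriptional repressor of the MYC network, and Igsf9b, a cell adhesion protein, followed at 0.11 each. Igfbp3 had 112, 104 and 89.7 CPM with A20 overexpression, against 78.2, 170.5 and 146 CPM in controls, in the order in which Manf stood except between A20-overexpressing libraries 1 and 2. Of the set, Calr was nearest to Manf, at rank 38 with 0.17, then Creld2 at rank 186 with 0.23 and Pdia4 at rank 463 with 0.28. Xbp1 was the farthest of the 10, at rank 3981 with 0.50. The order changed without control library 1: Wdr48 stood at rank 5, Ube2t at 8, Igfbp3 at 13, Mxd4 at 26 and Igsf9b at 27, and Calr, still the nearest of the set, at 186.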

How the data were processed

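RNA of 3 libraries of A20-overexpressing TM3 cells and 3 control libraries was sequenced. The authors deposited raw counts per gene, on GRCm38 (mm10) per the submitters' processing notes; aligner, counter, annotation release and strand setting are not given in the sources used here. The deposited FPKM equals the count divided by gene length and a library size set by the authors, for 100% of values within a relative 1e-06. Totals were 13841287 to 16917979 counts, and a floor of 3 counts covers counting error only.

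Counts were tested with edgeR 4.0.16 (filterByExpr, TMM factors, robust quasi-likelihood fit, R 4.3.3) with all 6 libraries and without control library 1, with Benjamini-Hochberg adjustment over all genes and a threshold of 0.05. The fits were tested on simulated data. Alternatives were other scaling factors, filters, non-robust fitting, DESeq2 1.42.0, limma-voom (limma 3.58.1) with and without quality weights, a replicate block, and each replicate left out. CPM used the total count. The overlap of groups was also counted on the FPKM scale, and the spread within groups and the likeness to Manf were recomputed without control library 1, alternatives added after seeing the data. The members, gene lists and tests were chosen with earlier results of these data known. Named were the 10 genes, Tnfaip3, up to 3 called genes of each list or else its most abundant gene, and the 5 genes most like Manf. Ddit3 and Atf4 were named as well, because Trib3 is induced through their products. Promoter sequences are RefSeq's; protein sequences were not used here.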

Additional observations from a re-analysis of the deposited data

How the results depend on the processing

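With all 6 libraries 2 genes were called in all, against 183 with DESeq2, 0 with library size alone, 0 with limma-voom, 413 with limma-voom and quality weights, 23 with no filter, 0 without robust fitting and 0 with upper-quartile factors. Leaving out 1 library gave 0 to 628 genes, 628 being without control library 1, and 0 to 1 of the 10 genes. Without control library 1, 628 genes were called, against 343 with quality weights and 1173 with no filter, and leaving out a further library gave 142 to 2423. The 2423 were without control library 3, and leaving out either remaining control leaves a control group of 1 library, assumed to vary like the others, which says nothing about stability. Of the 10 genes 1 was called there, against 2 with DESeq2 and 0 to 2 with a further library left out, the 2 again against 1 control library.

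Same-numbered libraries correlated at 0.0258, 0.115 and -0.0387 in their deviations from the group means, and differently numbered ones at -0.186 to 0.162. With so few libraries per group, and control library 1 apart from the others, these values cannot decide whether the replicate numbers pair the libraries. With the replicate number as a block, 2 genes were called with all libraries and 797 without control library 1. Sec61b was not called under that block without control library 1, at an edgeR adjusted p of 0.103, nor with quality weights, at a limma adjusted p of 0.0665.

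Signs turned for several genes. With all libraries, Calr was 0.11 without control library 2, Creld2 0.22 and Sdf2l1 0.25 without control library 3, and Hyou1 -0.11 and Pdia4 -0.092 with quality weights. Creld2 and Sdf2l1 also turned with limma-voom (0.0093 and 0.00059), the replicate block (0.015 and 0.0062) and without A20-overexpressing library 3 (0.053 and 0.065). In the fit without control library 1, Atf6 was -0.14 and Sdf2l1 0.081 against control library 2 alone, and Ern1 -0.044 against control library 3 alone. With all libraries, Hspa5 was 0.078 with limma-voom and 0.085 with the replicate block, and -0.35 to 0.32 with 1 library left out. Tmbim6 was -0.040 with quality weights and -0.031 to 0.14 with 1 library left out, P4hb -0.048 to 0.34 and Canx -0.17 to 0.32. Without control library 1, Tmbim6 was 0.0012 with library size alone, 0.0079 with the replicate block and -0.088 to 0.013 with a further library left out, P4hb -0.15 to 0.064 and Canx -0.41 to 0.11. The causes were not tested. Over both fits, 299 values of the 10 genes moved by less than the spread between replicates and 11 by more. With all 6 libraries this spread included control library 1, at a pooled SD of 0.47 for Manf and 0.46 for Hyou1. The Hyou1 value that turned sign without control library 1 fell among the 299, so these counts do not show stability. Before the start site alone, the motif counts of the genes were the same, and the shares of all promoters were 0.113%, 0.0304% and 1.65%. The SE of the 10 log2 fold changes was 0.15 to 0.33 with all libraries and 0.14 to 0.17 without control library 1. The smaller values thus came from the fit with fewer libraries, which leaves out the control library that stood apart. With so few libraries per group, each SE is itself uncertain.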
